A study of Mus musculus with 12 samples.

Results

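A set of 10 genes of the endoplasmic reticulum (ER) protein quality control system was followed in RAW 264.7 cells, a mouse macrophage line, out of 55137 entries of the deposited read-count table. They were taken by gene name, and all 10 were found once in the table and were among the 14505 genes tested. Of these, 5 are folding helpers (Hspa5, Hsp90b1, Dnajb9, Dnajc3 and Pdia4), 3 are degradation genes (Herpud1, Syvn1 and Edem1), and Sel1l, the adaptor of the degradation ligase, and Xbp1, a transcription factor, complete the set. The 12 libraries form 4 groups of 3. Control cells received vehicle, PSTO cells received 20 uM of an agent that the labels name only PSTO, LPS cells received vehicle and then LPS at 500 ng/mL, and PSTO+LPS cells received both. PSTO or vehicle preceded LPS by 30 minutes, and harvest followed after 6 h. The series title speaks of garlic extract, and the labels do not say that the numbered replicates were separate cultures, so p-values measure the spread between these libraries.

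Proteins that enter the ER are folded by chaperones and by enzymes that form disulfide bonds, and those that fail to fold are moved back to the cytosol, tagged with ubiquitin and destroyed by the proteasome, a route called ER-associated degradation. When unfolded proteins accumulate, the membrane sensors IRE1 (gene Ern1), ATF6 and PERK (gene Eif2ak3) start the unfolded protein response, in which spliced XBP1 and cleaved ATF6 act on the promoters of chaperone and degradation genes. Stimulated macrophages secrete large amounts of cytokines, many of which pass through the ER. LPS, from the outer membrane of Gram-negative bacteria, acts on macrophages through Toll-like receptor 4.

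A well known target sequence of this response is the ER stress response element, searched here as CCAAT and CCACG separated by any 9 bases, on both strands of the 250 bases before each RefSeq gene start (GRCm38.p6). Its shorter form, ATTGG and CCACG separated by 1 base, is called ER stress response element II. All 10 members had a promoter entry. The first element was found in 4 members, Hspa5, Hsp90b1, Dnajc3 and Syvn1, and in 35 of 27025 gene symbols with a promoter in the table (0.13%). The second was found in 1 member, Herpud1, and in 10 of those symbols (0.037%). Matches are descriptions of letters and not proven sites. The promoters of these 5 members and of Edem1, whose RNA moved opposite to Hspa5, are shown so that their letters can be compared, with element matches in capitals. The regions are Hspa5 chr2:34771840-34772089, plus strand, Syvn1 chr19:6046326-6046575, plus strand, Herpud1 chr8:94386179-94386428, plus strand, Hsp90b1 chr10:86705445-86705694, minus strand, Dnajc3 chr14:118937682-118937931, plus strand, and Edem1 chr6:108828391-108828640, plus strand.
Hspa5: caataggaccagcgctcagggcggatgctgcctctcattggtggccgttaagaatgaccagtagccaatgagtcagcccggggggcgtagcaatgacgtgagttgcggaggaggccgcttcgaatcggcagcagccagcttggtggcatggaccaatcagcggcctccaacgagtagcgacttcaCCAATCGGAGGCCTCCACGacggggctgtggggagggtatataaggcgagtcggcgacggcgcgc
Syvn1: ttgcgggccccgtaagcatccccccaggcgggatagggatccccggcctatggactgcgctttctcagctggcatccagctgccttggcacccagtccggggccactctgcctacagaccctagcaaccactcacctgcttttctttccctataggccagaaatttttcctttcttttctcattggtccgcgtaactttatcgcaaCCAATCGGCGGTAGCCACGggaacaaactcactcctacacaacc
Herpud1: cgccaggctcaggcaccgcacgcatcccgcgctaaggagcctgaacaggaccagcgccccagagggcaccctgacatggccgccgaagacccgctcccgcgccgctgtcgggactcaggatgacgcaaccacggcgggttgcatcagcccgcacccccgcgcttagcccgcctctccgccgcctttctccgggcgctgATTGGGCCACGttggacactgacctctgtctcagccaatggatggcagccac
Hsp90b1: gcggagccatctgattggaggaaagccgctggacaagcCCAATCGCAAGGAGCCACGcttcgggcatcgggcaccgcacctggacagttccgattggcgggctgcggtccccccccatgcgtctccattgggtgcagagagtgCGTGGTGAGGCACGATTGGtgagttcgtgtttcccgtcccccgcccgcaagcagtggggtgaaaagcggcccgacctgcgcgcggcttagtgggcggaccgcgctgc
Dnajc3: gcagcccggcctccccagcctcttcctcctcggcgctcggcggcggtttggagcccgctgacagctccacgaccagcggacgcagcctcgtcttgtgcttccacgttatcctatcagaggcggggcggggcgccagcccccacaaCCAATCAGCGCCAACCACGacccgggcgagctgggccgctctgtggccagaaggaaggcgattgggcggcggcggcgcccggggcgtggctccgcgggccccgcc
Edem1: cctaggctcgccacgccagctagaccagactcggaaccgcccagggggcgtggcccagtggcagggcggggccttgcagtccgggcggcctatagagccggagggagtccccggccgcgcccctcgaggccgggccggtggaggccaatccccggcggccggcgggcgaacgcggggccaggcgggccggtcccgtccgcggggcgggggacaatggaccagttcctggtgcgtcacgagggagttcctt
The match in Syvn1 lay between 44 and 26 bases before the start and that in Hspa5 between 65 and 47 bases before it. Hsp90b1 held 2 matches, 1 on each strand. Neither element was found in Dnajb9, Pdia4, Xbp1, Edem1 or Sel1l in this window. The octamer TGACGTGG, a core bound by XBP1 and ATF6, was found in 0 members and in 163 of the symbols (0.603%), the amino acid response form TGATGNAAT in 0 members and in 246 (0.91%), and the NRF2-type core TGACNNNGC in 1 member, Herpud1, and in 3112 (11.5%).

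Library totals ran from 15817880 to 28625784 reads, and the lowest Spearman correlation between libraries of a group was 0.988 across genes. Levels are counts per 1000000 reads after scaling by the trimmed mean of M values (CPM), and genes were called where the adjusted p of edgeR's quasi-likelihood test, by Benjamini-Hochberg over all genes tested, lay under 0.05. The scaling factors were 1.17 to 1.21 in the 6 libraries without LPS and 0.832 to 0.851 in the 6 with LPS. Scaling by total reads alone shifted the median log2 change over all genes by -0.53 in LPS vs control and by -0.49 in PSTO+LPS vs PSTO, and upper-quartile scaling shifted it by -0.15 and -0.11. Directions in the LPS comparisons are relative to that choice, whereas ratios of genes within a library are free of it. All 8 macrophage markers were read in every library, from Mertk at 0.238 to 2.27 CPM to Lyz2 at 4240 to 6590, and 3 of the 8 were called higher and 3 lower in LPS vs control. Csf1r was at 2605 ± 54.7 CPM in control and 852 ± 28.6 in LPS, Fcgr1 at 32.9 ± 1.08 and 296 ± 36.7, and Adgre1 at 131 ± 1.67 in control and 72.2 ± 3.95 in PSTO. Of the markers of T cells, fibroblasts and epithelium, Cd8a, Col1a2, Pdgfra, Epcam and Krt18 had no read in any library. Others on these lists were read at low levels. Cd3e, Cd3d and Cd4 reached at most 0.142, 0.248 and 0.358 CPM in a library. Col1a1 and Dcn reached 0.179 and 0.479, and Krt8 and Cdh1 0.119 and 0.234. Pax5, a B cell transcription factor, was at most 0.0937 CPM in control and 0.113 in PSTO, and ran from 6.95 to 11.7 in LPS and from 4.49 to 6.11 in PSTO+LPS. The endothelial list summed to 1.12 to 1.78 CPM in control and 3.09 to 5.36 in LPS, with 2 of its 3 tested genes (Cdh5, Kdr) called higher. The summed T cell list ran from 0.678 to 2.12 CPM in control and from 5.49 to 7.5 in LPS, with Lck the one member of its 5 that was tested. The plasma cell list summed to 162 to 169 CPM in control and 346 to 353 in LPS, nearly all of it Sdc1, while Jchain and Mzb1 stayed at 0.25 CPM or less. The neutrophil list summed to 1.29 to 1.88 CPM in control and 8.94 to 10.9 in PSTO+LPS, nearly all of it S100a8. Their part in the results was not tested.

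Hspa5 encodes BiP, the main Hsp70 chaperone of the ER lumen and the protein that holds the stress sensors inactive. Its level was 960.0, 935 and 973 CPM in control, 1129, 1190.5 and 1230.0 after PSTO, 1858, 1941 and 1860.0 after LPS and 2769.5, 2615 and 2603 after both. The 4 groups did not overlap and stood in that order in every library. LPS raised Hspa5 by a log2 change of 0.98 (SE 0.04, adjusted p = 6.79e-14), a fold of 1.97, and PSTO raised it by 0.31 (SE 0.04, adjusted p = 7.78e-06) without LPS and by 0.50 (SE 0.04, adjusted p = 1.21e-08) with LPS. Per 1000 bases of exon (exon union of the GENCODE M21 gene models, GRCm38) Hspa5 was the most abundant member in every group, at 226 CPM in control and 630 in PSTO+LPS, where the second, Hsp90b1, stood at 113 and 130.1. In these bulk libraries more RNA per cell and more cells with the RNA cannot be told apart.

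**Figure D1:**
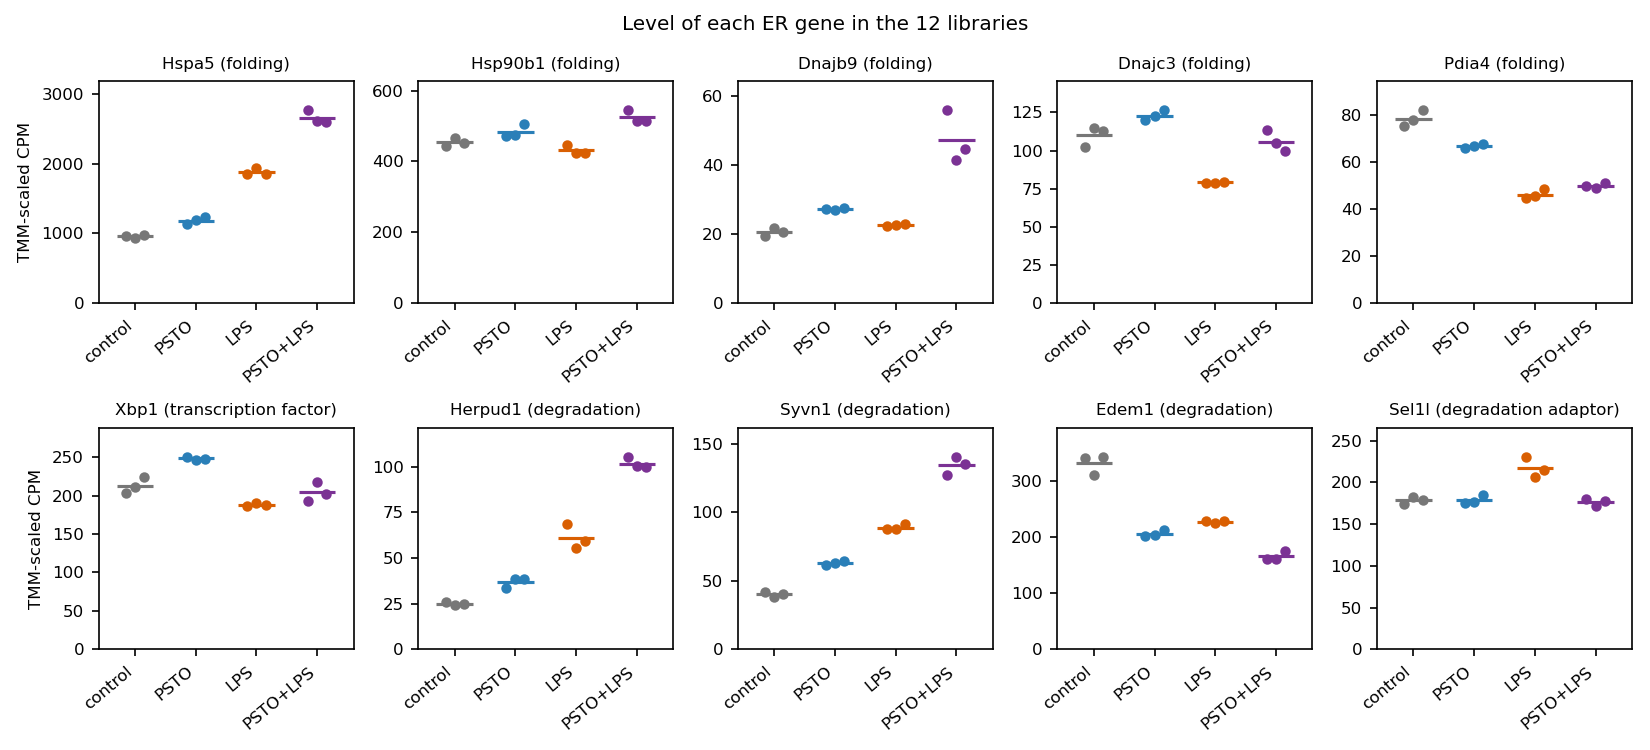
TMM-scaled CPM (vertical axes, from 0, 1 scale per gene) of the 10 ER genes in the 12 libraries (points) with the group mean (line). Hspa5, Herpud1 and Syvn1 step up from control to PSTO, LPS and PSTO+LPS without overlap, while Edem1 is highest in control and lowest in PSTO+LPS.

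None of the other folding helpers was called higher in all 4 comparisons, as Hspa5 was. Hsp90b1 encodes GRP94, the Hsp90 chaperone of the ER, which serves Toll-like receptors and integrins among its clients. It stood at 442, 467 and 452 CPM in control, 472, 473 and 506 after PSTO, 447, 425 and 425 after LPS and 544, 514 and 515 after both. Its LPS vs control libraries overlapped, with a log2 change of -0.07 (95% interval -0.16 to 0.02, adjusted p = 0.188), and the interval excludes the change seen for Hspa5. It was called lower there with upper-quartile scaling (-0.22, adjusted p = 0.000268) and with total-read scaling (-0.60, adjusted p = 8.51e-10). PSTO with LPS was above LPS alone in every library, with a log2 change of 0.28 (SE 0.05, adjusted p = 6.71e-05), and PSTO alone vs control was not called (log2 change 0.09, 95% interval -0.0017 to 0.19, adjusted p = 0.135). The call of a small rise in PSTO+LPS vs PSTO, 0.12 (SE 0.05, adjusted p = 0.032), was lost with upper-quartile scaling (0.00357, adjusted p = 0.953) and turned to -0.37 with total-read scaling (adjusted p = 7.59e-07). It was also lost with no filter beyond 1 read (adjusted p = 0.256), with a fit of the 2 groups alone (adjusted p = 0.0549), without PSTO 2 (adjusted p = 0.0502) and without PSTO+LPS 1 (adjusted p = 0.126). In the GENCODE M21 models 415 exonic bases of Hsp90b1 overlap the pseudogene 1810014B01Rik on the other strand, which had at most 130 reads in a library.

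Dnajb9 and Dnajc3 encode co-chaperones of BiP, ERdj4 and p58IPK. Dnajb9 is a frequent readout of the IRE1 and XBP1 branch. Its level was 19.5, 21.6 and 20.7 CPM in control, 27.3, 27.0 and 27.4 after PSTO, 22.2, 22.6 and 22.9 after LPS and 55.8, 41.5 and 44.7 after both. The PSTO+LPS libraries spread the most and PSTO+LPS 1 was the highest, yet all 3 stood above every other library. LPS alone left Dnajb9 not called (log2 change 0.14, 95% interval -0.07 to 0.34, adjusted p = 0.245), whereas the same LPS treatment after PSTO raised it by 0.80 (SE 0.10, adjusted p = 6.71e-07) on the log2 scale. PSTO raised it by 0.40 (SE 0.10, adjusted p = 0.00336) without LPS and by 1.07 (SE 0.10, adjusted p = 7.39e-08), a fold of 2.10, with LPS. The difference between both PSTO effects was 0.66 (SE 0.14, adjusted p = 0.00206), the largest interaction among the 10 members. With upper-quartile scaling the LPS vs control change was -0.016 (adjusted p = 0.901), and with total-read scaling it was -0.39 (adjusted p = 0.0022).

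Dnajc3 went from 102, 115 and 113 CPM in control and 119.9, 123 and 126 after PSTO to 78.6, 79.0 and 79.7 after LPS and 113, 105 and 99.7 after both. LPS alone gave the lowest libraries of all, and PSTO+LPS overlapped control. LPS lowered it (log2 change -0.48, SE 0.06, adjusted p = 9e-07), and PSTO+LPS stood 0.42 (SE 0.06, adjusted p = 1.65e-05) above LPS. After PSTO, LPS also lowered it (log2 change -0.22, SE 0.06, adjusted p = 0.00376). The rise with PSTO alone, 0.16 (SE 0.06, adjusted p = 0.0405), kept its call under 7 of 21 other settings. It was lost, for example, without control 1 (0.09, adjusted p = 0.355), without PSTO 3 (0.12, adjusted p = 0.233) and with DESeq2 (0.14, adjusted p = 0.0642).

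Pdia4 encodes ERp72, a protein disulfide isomerase. It was highest in control, at 75.4, 78.1 and 82.2 CPM, lower in PSTO at 66.1, 67.2 and 67.7, and lowest in LPS and PSTO+LPS, at 44.8, 45.4 and 48.4 and 49.9, 48.9 and 51.3. Each step from control to PSTO and from either to its LPS partner separated all libraries. LPS lowered it (log2 change -0.77, SE 0.06, adjusted p = 7.04e-10) as did PSTO (log2 change -0.23, SE 0.06, adjusted p = 0.00366), and PSTO+LPS vs LPS was not called (log2 change 0.12, 95% interval -0.0087 to 0.24, adjusted p = 0.137) although the 3 libraries stood above those of LPS. Pdia4 was the one folding helper called against the direction of Hspa5 in PSTO vs control. In LPS vs control and PSTO+LPS vs PSTO both Pdia4 and Dnajc3 were.

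Xbp1 encodes the transcription factor that IRE1 activates by splicing its mRNA, and these gene counts do not separate its spliced from its unspliced form. Its total level was 204, 211 and 224 CPM in control, 251, 247 and 248 after PSTO, 187, 191 and 188 after LPS and 194, 218 and 203 after both. PSTO alone gave the highest libraries and LPS alone the lowest. The log2 change was 0.22 (SE 0.05, adjusted p = 0.00266) for PSTO vs control, -0.18 (SE 0.05, adjusted p = 0.00563) for LPS vs control and -0.28 (SE 0.05, adjusted p = 0.000126) for PSTO+LPS vs PSTO. PSTO+LPS vs LPS missed the threshold (log2 change 0.12, 95% interval 0.01 to 0.23, adjusted p = 0.0783) and passed it under 12 of 21 other settings.

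The degradation genes split. Herpud1 encodes HERP, a membrane protein that organises the degradation complex around the ligase HRD1. Its level was 25.7, 24.3 and 24.6 CPM in control, 33.7, 38.6 and 38.5 after PSTO, 68.6, 55.3 and 59.4 after LPS and 105, 100.2 and 99.6 after both. The order of groups was that of Hspa5, again without overlap, and the LPS libraries spread the most, with LPS 1 the highest of them. The log2 change was 1.30 (SE 0.08, adjusted p = 3.01e-11) with LPS, a fold of 2.46 and the largest LPS effect among the members, and 1.46 (SE 0.08, adjusted p = 4.19e-12) with LPS after PSTO. PSTO raised Herpud1 by 0.57 (SE 0.08, adjusted p = 1.69e-05) alone and by 0.73 (SE 0.08, adjusted p = 3.2e-07) with LPS, and these PSTO effects were not shown to differ (log2 difference 0.16, 95% interval -0.07 to 0.39, adjusted p = 0.367).

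Syvn1 encodes HRD1, the ubiquitin ligase of the complex. It stood at 42.2, 38.5 and 40.2 CPM in control, 61.8, 62.8 and 64.3 after PSTO, 87.9, 87.8 and 91.3 after LPS and 127, 141 and 136 after both. All 4 groups were separate and in the same order as for Hspa5 and Herpud1. LPS raised Syvn1 by 1.14 (SE 0.06, adjusted p = 1.29e-12) and PSTO raised it by 0.64 (SE 0.06, adjusted p = 5.78e-08) alone and 0.60 (SE 0.06, adjusted p = 7.88e-08) with LPS. The interaction was -0.05 (95% interval -0.21 to 0.12, adjusted p = 0.766). In the GENCODE M21 models 91 exonic bases of Syvn1 overlap Mrpl49 on the other strand, which had at most 1148 reads in a library, and the strand setting of the counting is not given in the sources used here.

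Edem1 encodes a lectin of the mannosidase family that marks misfolded glycoproteins for degradation. Its level fell from 341, 311 and 343 CPM in control to 202, 203 and 212 after PSTO, 229, 224 and 228 after LPS and 161, 161 and 175 after both. Control libraries were the highest and PSTO+LPS libraries the lowest, with no overlap between any groups. PSTO lowered Edem1 without LPS (log2 change -0.69, SE 0.05, adjusted p = 5.54e-09) and with LPS (log2 change -0.45, SE 0.05, adjusted p = 1.27e-06), and LPS lowered it (log2 change -0.55, SE 0.05, adjusted p = 1.82e-08). It was the member with the largest fall in PSTO vs control and in PSTO+LPS vs LPS, and Pdia4 was that in both LPS comparisons.

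Sel1l, the adaptor that holds HRD1 in a stable complex, was 174, 183 and 179 CPM in control, 175, 177 and 184 after PSTO, 231, 207 and 215 after LPS and 179.6, 171 and 177 after both. Only the LPS group stood apart, above the 9 other libraries. The log2 change was 0.29 (SE 0.05, adjusted p = 6.74e-05) with LPS alone, and PSTO+LPS vs LPS was -0.31 (SE 0.05, adjusted p = 9.53e-05). PSTO vs control (log2 change 0.0029, 95% interval -0.10 to 0.11, adjusted p = 0.982) and PSTO+LPS vs PSTO (log2 change -0.02, 95% interval -0.13 to 0.08, adjusted p = 0.712) were not called, but the second was called lower with upper-quartile (-0.14, adjusted p = 0.0282) and total-read scaling (-0.51, adjusted p = 4.9e-08). With total-read scaling the LPS vs control change turned to -0.24 and was called, so the direction of Sel1l in that comparison rests on the scaling. In PSTO+LPS vs LPS its partner Syvn1 rose while Sel1l fell.

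**Figure D2:**
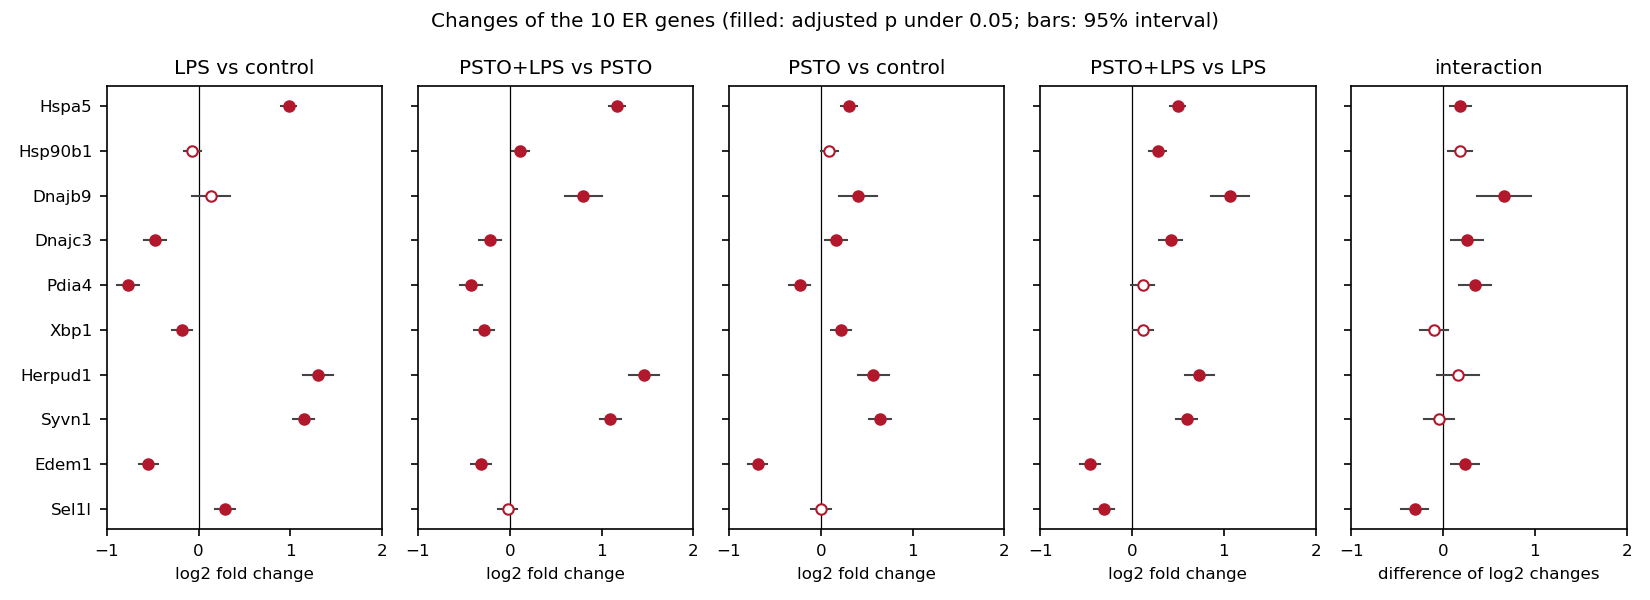
Log2 fold change (points) with its 95% interval (bars) for the 10 members in the 4 comparisons, and the interaction as the difference of log2 changes (last panel). Filled points passed an adjusted p under 0.05. Hspa5, Herpud1 and Syvn1 lie right of 0 and Edem1 left of 0 in all 4 comparisons.

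Counted over the members, 8 of 10 differed between LPS and control, 4 higher (Hspa5, Herpud1, Syvn1, Sel1l) and 4 lower (Dnajc3, Pdia4, Xbp1, Edem1). Of all genes tested 62.9% were called in that comparison, 32.8% higher and 30.1% lower, and with total-read scaling 21.5% of the calls were higher in place of 52.1%. The members' median log2 change was 0.03 and that of all genes 0.0078, and with total-read scaling 3 members were higher and 7 lower. The libraries of both groups did not overlap for 9 members and for 67.4% of all genes. In PSTO+LPS vs PSTO 9 members were called, 5 higher and 4 lower, where 59.7% of all genes were called (29.8% higher, 29.9% lower) and the medians were 0.05 and -0.02. With total-read scaling 20.6% of the calls in that comparison were higher in place of 49.8%, and 4 members were higher and 6 lower. Libraries did not overlap for 9 members and 64.9% of all genes. In PSTO vs control 8 were called, 6 higher and 2 lower (Pdia4, Edem1), against 30.6% of all genes (14.8% higher, 15.8% lower), with medians of 0.19 and -0.00016. Libraries did not overlap for 9 members and 44.3% of all genes. In PSTO+LPS vs LPS 8 were called, 6 higher (Hspa5, Hsp90b1, Dnajb9, Dnajc3, Herpud1, Syvn1) and 2 lower (Edem1, Sel1l), against 38.3% of all genes (16.6% higher, 21.7% lower), with medians of 0.35 and -0.03. Libraries did not overlap for all 10 members and for 47.4% of all genes. The LPS comparisons share no library with each other, nor do the PSTO comparisons, but an LPS and a PSTO comparison share a group.

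Set against each other, the 5 folding and the 3 degradation members did not separate as classes. Larger lists of both kinds are read further below. The 5 folding helpers together took 1619 ± 20.5 CPM in control, 1884 ± 71.2 after PSTO, 2467 ± 40.9 after LPS and 3390.3 ± 124 after both (mean ± SD, n = 3). Without Hspa5 the other 4 summed to 663 ± 21.4, 701 ± 22.8, 580.0 ± 10.9 and 728 ± 30.8 CPM in the same order. The stepwise growth of the folding sum was therefore that of Hspa5. The 3 degradation genes summed to 397 ± 20.2, 306 ± 8.45, 377 ± 9.01 and 402 ± 7.97 CPM. In each treated group Edem1 was lower and Herpud1 and Syvn1 were higher than in control. After PSTO the fall of Edem1 was the larger part, and the sum (at most 315 CPM) lay below control (at least 373.5 CPM). Sums of groups with and without LPS compare only under the scaling used.

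Ratios to Hspa5 reads of the same library do not depend on the scaling between libraries. Edem1 had 355, 332 and 352 reads per 1000 Hspa5 reads in the control libraries, 179, 170.3 and 172 after PSTO, 123, 116 and 122 after LPS and 58.3, 61.6 and 67.2 after both. The ratio dropped at each step with no overlap. Syvn1 had 43.9, 41.2 and 41.3 in control libraries, 54.7, 52.8 and 52.3 after PSTO, 47.3, 45.2 and 49.1 after LPS and 46.0, 53.8 and 52.1 after both, which is above control in every treated library. Herpud1 had 26.8, 25.9 and 25.3 in control libraries, 29.9, 32.4 and 31.3 after PSTO, 36.9, 28.5 and 31.9 after LPS and 38.0, 38.3 and 38.3 after both, also above control in every treated library, with LPS 1 apart from LPS 2. These ratios are given as levels, with no test. Hsp90b1 had 475 ± 21.4 reads per 1000 Hspa5 reads in control and 229 ± 10.8 in LPS, and Dnajb9 had 21.5 ± 1.44 in control, 11.99 ± 0.333 in LPS and 17.7 ± 2.19 in PSTO+LPS. Pdia4 had 82.2 ± 3.13 in control and 18.8 ± 0.834 in PSTO+LPS, and Sel1l had 187 ± 7.81 and 66.1 ± 1.70. The Hsp90b1 ratio was 197 ± 0.812 in PSTO+LPS. Dnajc3 had 115 ± 8.16 in control and 39.7 ± 1.30 in PSTO+LPS, and Xbp1 had 223 ± 9.31 and 77.1 ± 6.83. Because Hspa5 rose over the groups, a lower ratio need not mean a lower level of the other gene. Sel1l, for example, was at 179 ± 4.75 CPM in control and 176 ± 4.27 in PSTO+LPS.

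**Figure D3:**
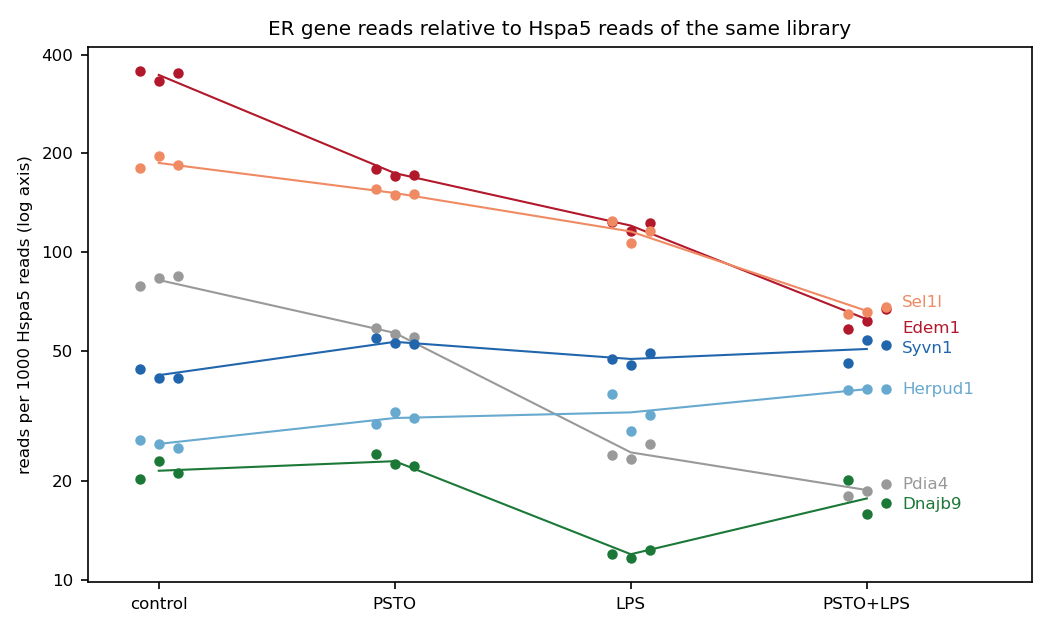
Reads of 6 ER genes per 1000 Hspa5 reads of the same library (log axis) in the 12 libraries (points), with lines through the group means. Edem1, Sel1l, Pdia4 and Dnajb9 drop from control to PSTO+LPS, whereas Syvn1 and Herpud1 stand above control in every treated library. The ratios of Hsp90b1, Dnajc3 and Xbp1, not drawn, also drop. Hspa5 itself rises over the groups, so a drop need not mean a lower level of the gene.

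The members with and without a promoter match are listed here by their calls. Of the 5 members with either element, Hspa5, Syvn1 and Herpud1 rose in all 4 comparisons, Dnajc3 fell with LPS, and Hsp90b1, with 2 matches, was not called with LPS alone and was called lower there with upper-quartile and total-read scaling. All 5 were called higher in PSTO+LPS vs LPS, where 16.6% of all genes tested were called higher and 21.7% lower. Of the 5 without a match in the window, Dnajb9 was called higher there, Xbp1 and Pdia4 were not called, and Edem1 and Sel1l were called lower. In PSTO vs control Dnajb9 and Xbp1, also without a match, were called higher, Pdia4 and Edem1 lower and Sel1l was not called. Hsp90b1 was not called there. In LPS vs control Sel1l was called higher, Pdia4, Xbp1 and Edem1 lower, and Dnajb9 was not called. In PSTO+LPS vs PSTO Dnajb9 was called higher, Pdia4, Xbp1 and Edem1 lower, and Sel1l was not called. The count of members is too small for a test of the elements, and none was made.

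Over the 12 libraries, which form 4 clusters, the genes with the pattern most like Hspa5 among 9650 named genes of at least 5 CPM were Txnrd1 and Gtf2f1 (Pearson r of log2 CPM 0.997 for each, given as a description) and Sowahc (0.996). Txnrd1 encodes thioredoxin reductase. The nearest to Herpud1 were Rwdd4a (0.996), Pabpc4 (0.995) and Nploc4 (0.993). Nploc4 encodes a cofactor of the ATPase that pulls ubiquitin-tagged proteins out of the ER membrane, and it is a member of the degradation list below. The nearest to Edem1 were Tmem38b (0.991), Ptpra (0.99) and Plekhm1 (0.98).

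Other genes of the same machinery were read from 6 lists, and the largest changes named from each are those among called genes that reached a mean of 5 CPM in a group. For the list counts below, the shares of all genes tested were 32.8% higher and 30.1% lower in LPS vs control. They were 29.8% and 29.9% in PSTO+LPS vs PSTO, 14.8% and 15.8% in PSTO vs control, and 16.6% and 21.7% in PSTO+LPS vs LPS. Of 26 further folding genes, 5 rose and 13 fell in LPS vs control, with a median log2 change of -0.13. Ero1l, the oxidase that recharges the disulfide isomerases, rose from 80.4 ± 4.38 to 143 ± 5.64 CPM (log2 change 0.83, SE 0.06, adjusted p = 4.06e-10). Erp29, an ER protein of the thioredoxin fold family, fell from 241 ± 2.0 to 88.2 ± 3.66 CPM (log2 change -1.45, SE 0.05, adjusted p = 1.3e-14). PSTO alone raised 7 of the 26 and lowered 1, Erp29 (log2 change -0.63, SE 0.05, adjusted p = 2.73e-08), with a median of 0.04, and PSTO with LPS raised 14 and lowered 2 against LPS alone, with a median of 0.19. Sdf2l1, a partner of BiP, rose there from 17.6 ± 3.76 to 26.6 ± 0.658 CPM (log2 change 0.60, SE 0.12, adjusted p = 0.000565), and the fall of Pdia5 (log2 change -0.38, SE 0.12, adjusted p = 0.0206) was lost under 5 of 21 other settings. With total-read scaling 1 of the 26 was higher and 24 lower in LPS vs control (median -0.66), and with upper-quartile scaling 2 and 15 (median -0.28). Both of these scalings move all genes downward there, so neither could have put the list median above 0. In PSTO+LPS vs PSTO 9 rose and 7 fell (median 0.02), against 1 and 24 with total-read scaling.

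Of 27 tested degradation genes other than the members, 15 rose and 5 fell in LPS vs control (median 0.24), and 12 rose and 7 fell in PSTO+LPS vs PSTO (median 0.11). PSTO raised 16 and lowered 1 without LPS (median 0.21) and raised 13 and lowered 3 with LPS (median 0.17). Both LPS counts depend on the scaling, since total-read scaling gave 1 higher and 20 lower in the first (median -0.29) and 2 and 18 in the second (-0.37). Upper-quartile scaling put the second median at -0.00094, and that of the folding list in the same comparison at -0.09. Vcp, the ATPase that extracts proteins for the proteasome, was at 454 ± 10.5 CPM in control, 576 ± 26.1 after PSTO, 559 ± 6.84 after LPS and 822 ± 6.89 after both, with a log2 change of 0.56 (SE 0.04, adjusted p = 4.65e-09) for PSTO+LPS vs LPS. Ube2j1, a ubiquitin-conjugating enzyme of the ER membrane, had the largest rise with PSTO alone (log2 change 0.39, SE 0.05, adjusted p = 9.11e-06), and Erlec1, an ER lectin, the fall (log2 change -0.33, SE 0.10, adjusted p = 0.0142), which was lost under 1 of 21 other settings. Rnf139, an ER ubiquitin ligase, had the largest rise with LPS (log2 change 0.90, SE 0.10, adjusted p = 1.18e-07) and the largest fall when PSTO preceded LPS (log2 change -0.55, SE 0.10, adjusted p = 0.000169). Rnf5, another such ligase, had the largest fall with LPS (log2 change -0.99, SE 0.29, adjusted p = 0.00632). After PSTO the largest LPS effects in these lists were the rises of Ero1l (log2 change 0.96, SE 0.06, adjusted p = 4.55e-11) and Selenos (log2 change 0.70, SE 0.05, adjusted p = 1.19e-09) and the falls of Cnpy3, a co-chaperone of GRP94 (log2 change -1.10, SE 0.08, adjusted p = 8.25e-10), and Edem2, a relative of Edem1 (log2 change -0.67, SE 0.08, adjusted p = 2.9e-07). Derl3 did not pass the filter on low counts.

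**Figure D4:**
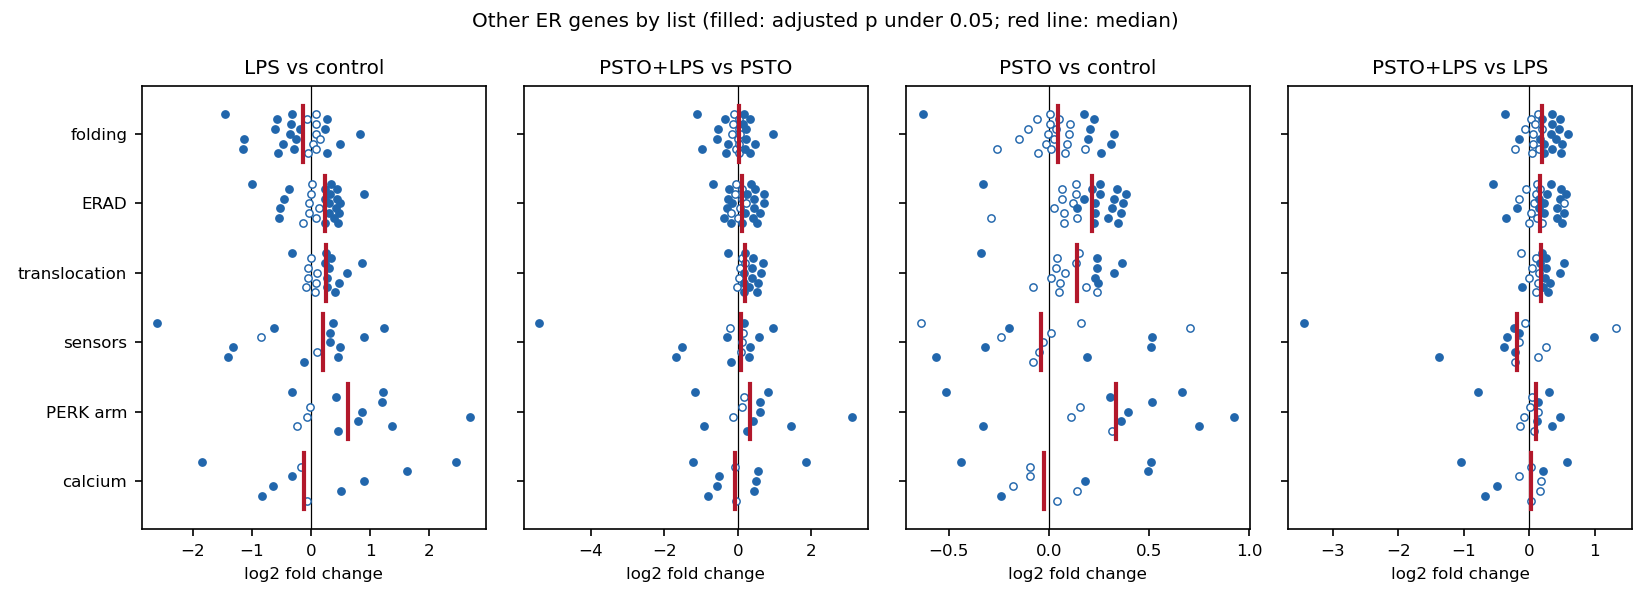
Log2 fold change of each tested gene in 6 lists of ER genes (points, filled at an adjusted p under 0.05) with the list median (red line), in the 4 comparisons; each panel has its own horizontal scale. The folding list has its median left of 0 in LPS vs control (-0.13, and -0.66 with total-read scaling). The degradation list has it right of 0 there (0.24, and -0.29 with total-read scaling). A change of scaling shifts both medians alike, so it could not change their order.

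The stress sensors moved apart from one another. Ern1, which encodes IRE1, was at 40.5 ± 6.80 CPM in control, 57.5 ± 2.46 after PSTO, 43.2 ± 2.03 after LPS and 85.8 ± 6.79 after both. PSTO raised it by 0.51 (SE 0.09, adjusted p = 0.000257) alone and by 0.99 (SE 0.09, adjusted p = 9.64e-08) with LPS, and, as for Dnajb9, LPS alone did not move it past the threshold (log2 change 0.10, 95% interval -0.10 to 0.29, adjusted p = 0.391). Atf6 fell with LPS (log2 change -0.62, SE 0.06, adjusted p = 3.34e-08) and with PSTO (log2 change -0.32, SE 0.06, adjusted p = 0.000404), and Eif2ak3 fell from 25.6 ± 4.0 to 10.3 ± 1.73 CPM with LPS (log2 change -1.32, SE 0.14, adjusted p = 1.53e-07) and was not called with PSTO (log2 change -0.03, 95% interval -0.31 to 0.25, adjusted p = 0.915). Over the list, 7 of 14 tested sensors and regulators rose and 5 fell in LPS vs control (median 0.21), 5 rose and 5 fell in PSTO+LPS vs PSTO (0.10), 3 rose and 3 fell in PSTO vs control (-0.04), and 1 rose and 7 fell in PSTO+LPS vs LPS (-0.19). In LPS vs control that is 50% higher and 35.7% lower, against 32.8% and 30.1% of all genes. With total-read scaling the medians of both LPS comparisons were -0.32 and -0.39, and with upper-quartile scaling 0.05 and -0.01. Traf2, an adaptor of IRE1, rose most with LPS (log2 change 1.24, SE 0.08, adjusted p = 8.58e-11), and Creb3l2, an ATF6 relative, fell most (log2 change -1.41, SE 0.11, adjusted p = 1.39e-09).

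Downstream of PERK, Atf4 rose with LPS (log2 change 0.79, SE 0.04, adjusted p = 8.7e-12) and with PSTO (log2 change 0.31, SE 0.04, adjusted p = 2.34e-05), and Ppp1r15a, whose product reverses the PERK block on translation, rose with LPS (log2 change 1.37, SE 0.08, adjusted p = 2.92e-11) and with PSTO (log2 change 0.39, SE 0.08, adjusted p = 0.00129). Ddit3, which encodes the pro-apoptotic factor CHOP, did not rise in any of the 4 comparisons. It stood at 19.8 ± 2.98 CPM in control, 15.8 ± 1.38 after PSTO, 15.9 ± 0.318 after LPS and 14.5 ± 1.33 after both, and its falls with LPS (log2 change -0.32, SE 0.12, adjusted p = 0.0252) and PSTO (log2 change -0.33, SE 0.12, adjusted p = 0.0401) were lost under 3 and 6 of 21 other settings. Of the 12 PERK arm genes 8 rose and 1 fell in LPS vs control (median 0.62), 7 rose and 2 fell in PSTO+LPS vs PSTO (0.34), 7 rose and 2 fell in PSTO vs control (0.34), and 5 rose and 1 fell in PSTO+LPS vs LPS (0.10). With total-read scaling the medians of both LPS comparisons were 0.10 and -0.15. Atf3 had the largest rise with LPS (log2 change 2.69, SE 0.10, adjusted p = 9.26e-15), and Sesn2 that with PSTO (log2 change 0.93, SE 0.09, adjusted p = 3.2e-07).

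The list of protein entry into the ER held 18 genes. Of these, 10 rose and 1 fell in LPS vs control (median 0.25), 12 rose and 1 fell in PSTO+LPS vs PSTO (0.20), 6 rose and 1 fell in PSTO vs control (0.14), and 10 rose and 1 fell in PSTO+LPS vs LPS (0.17). With total-read scaling 1 was higher and 15 lower in LPS vs control (median -0.28), and 2 and 10 in PSTO+LPS vs PSTO (-0.28). Srpr, the receptor for the signal recognition particle, had the largest rise with LPS (log2 change 0.85, SE 0.05, adjusted p = 4.95e-12) and with PSTO (log2 change 0.37, SE 0.05, adjusted p = 5.1e-06), and Tram1 the largest fall with LPS (log2 change -0.33, SE 0.05, adjusted p = 1.05e-05). ER calcium genes were split, with 4 higher and 4 lower of 10 in LPS vs control (median -0.12) and in PSTO+LPS vs PSTO (-0.07), 3 higher and 2 lower in PSTO vs control (-0.02), and 2 higher and 3 lower in PSTO+LPS vs LPS (0.03). Among all genes 32.8% were higher and 30.1% lower in LPS vs control, where 40% and 40% of the calcium list were. With total-read scaling 2 of the calcium list were higher and 6 lower in LPS vs control (median -0.65), and 1 and 6 in PSTO+LPS vs PSTO (-0.55). Stim2, a sensor of ER calcium, rose with LPS (log2 change 2.44, SE 0.06, adjusted p = 1.61e-17), and the calcium channel gene Itpr3 fell (log2 change -1.84, SE 0.07, adjusted p = 9.21e-15).

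The interaction asks whether PSTO acted differently with LPS than without it. It was called for 6 of the 10 members, against 17.1% of all genes (6.96% higher, 10.1% lower), with medians of 0.19 and -0.03. Of the 5 folding helpers 4 were more positive with LPS, namely Dnajb9, Pdia4 (log2 difference 0.35, SE 0.08, adjusted p = 0.0057), Dnajc3 (log2 difference 0.26, SE 0.08, adjusted p = 0.0377) and Hspa5 (log2 difference 0.19, SE 0.06, adjusted p = 0.0255), and Hsp90b1 missed the threshold (log2 difference 0.19, 95% interval 0.05 to 0.32, adjusted p = 0.051) and passed it under 11 of 20 other settings. Edem1 was also more positive (log2 difference 0.24, SE 0.07, adjusted p = 0.03), which here means a smaller fall, and Sel1l more negative (log2 difference -0.31, SE 0.07, adjusted p = 0.00512). Herpud1, Syvn1 and Xbp1 (log2 difference -0.10, 95% interval -0.25 to 0.05, adjusted p = 0.414) were not called. The count of called members was 3 with no filter on low counts and without LPS 1 or LPS 3, and 7 at most, for example with DESeq2, limma-voom and each of the 3 other scalings, and Dnajb9 and Pdia4 kept their calls under all 20 other settings.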

How the data were processed

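The authors deposited raw read counts per gene for 12 RNA-seq libraries. HISAT, DESeq2 and the build mm39 are named in the submitters' processing notes. The read counter, annotation, strand setting and tool versions are not stated there. All 12 columns matched a sample by title. Counts were analysed with R 4.3.3, edgeR 4.0.16 and limma 3.58.1. filterByExpr kept 14505 genes and set aside 40632. Library sizes were scaled by TMM, and a quasi-likelihood model with 1 mean per group was fitted to all 12 libraries (common biological coefficient of variation 0.0959) and tested on simulated counts. LPS was tested without and with PSTO, PSTO without and with LPS, and the interaction as the difference of both PSTO effects (5 comparisons). P-values were adjusted over all genes. SE is the log2 change divided by the square root of F. Levels are CPM, given per library or as mean ± SD (n = 3).

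The members and lists were chosen with earlier results of these data known. Beyond the members, the text names, per list and comparison, up to the largest called rise and fall among genes of at least 5 CPM, with 6 stress response genes always read, and the 3 genes most like Hspa5, Herpud1 and Edem1. Older symbols of 4 genes were matched through RefSeq synonyms. Promoters are RefSeq, GRCm38.p6, and exon lengths GENCODE M21, builds other than mm39, so both were joined by symbol or identifier. Alternatives were other scalings, filters, DESeq2 1.42.0, limma-voom, a replicate block, 2-group fits and leaving out each library, and total-read scaling was chosen after seeing the data. The result for 1 marker gene is not reported here.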

Additional observations from a re-analysis of the deposited data

Results flagged for a closer look

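The PSTO effect on these genes differed with and without LPS by the interaction test of the same edgeR fit (log2 difference, PSTO effect with LPS minus that without). Among the members the differences were 0.19 for Hspa5, 0.66 for Dnajb9, 0.26 for Dnajc3, 0.35 for Pdia4, 0.24 for Edem1 and -0.31 for Sel1l. Of these calls, that of Dnajc3 was lost under 7 of 20 other settings (adjusted p = 0.0556 with the replicate block), that of Edem1 under 5, that of Hspa5 under 4 and that of Sel1l under 2. In Pdia4 PSTO vs control was -0.23 and PSTO+LPS vs LPS 0.12, so the effect changed sign, although the second was not called. Among the sensors the differences were 0.48 for Ern1, 0.45 for Atf6 and -0.81 for Wfs1 (adjusted p = 0.0497, lost under 17 of 20 other settings).

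In the PERK arm they were -0.19 for Atf4 (adjusted p = 0.0426, lost under 16 of 20 other settings), -1.15 for Trib3 and 0.43 for Atf3 (lost under 4 of 20). Trib3, a pseudokinase gene, was at 25.3 ± 2.27 CPM in control, 32.5 ± 1.20 after PSTO, 25.1 ± 2.05 after LPS and 14.6 ± 2.57 after both. Further differences were 0.59 for Sdf2l1, 0.39 for Selenok, -0.67 for Rnf139, -1.18 for Itpr1 and 0.61 for Itpr3. The calcium channel gene Itpr1 was at 29.6 ± 2.86, 32.7 ± 1.35, 91.7 ± 9.37 and 44.6 ± 3.17 CPM in the same order of groups (adjusted p = 1.4e-06).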

How the results depend on the processing

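Of 50 member values, 35 kept their direction and their side of the threshold under every alternative run (21 settings, 20 for the interaction), and so did 66 of 83 values of other named genes. Members called in the interaction numbered 6, and 3 with no filter beyond 1 read, and from 3 to 7 without single libraries. Directions turned with total-read scaling for Dnajb9 (-0.39), Sel1l (-0.24) and Ern1 (-0.43) in LPS vs control, for Hsp90b1 (-0.37) in PSTO+LPS vs PSTO and for Sel1l (-0.028) in PSTO vs control. With upper-quartile factors Dnajb9 (-0.016) and Ern1 (-0.057) turned in LPS vs control. Sel1l, near 0, turned with relative log expression factors (0.0018) and DESeq2 (0.0020) in PSTO+LPS vs PSTO, and in PSTO vs control (-0.015 and -0.014). Without single libraries it ran from -0.042 to 0.029 and from -0.043 to 0.0039. Likewise Ern1 in LPS vs control ran from -0.021 to 0.20, Eif2ak3 in PSTO vs control from -0.17 to 0.060, and the interaction of Syvn1 from -0.084 to 0.0445 and of Ppp1r15a from -0.054 to 0.18. Same-numbered replicates did not deviate together (18 correlations across genes from -0.0314 to 0.0513), and the replicate block gave 8987, 8521, 4294, 5366 and 2345 called genes in place of 9121, 8662, 4440, 5557 and 2476, and 8, 9, 7, 8 and 5 called members. Members had from 431 (Dnajb9) to 48084 (Hspa5) reads in a library. Dnajb9 stood at 22.6 ± 0.352 CPM in LPS, with 431 to 531 reads. It stood at 47.3 ± 7.51 CPM in PSTO+LPS, with 550 to 969 reads. Whether depth limits its precision was not tested.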
